A study of Mus musculus with 12 samples.

Results

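Gene expression in primary neural stem cells of the mouse, taken 3 h after differentiation was started, was compared between cells labelled Chd5-/- and wild-type cells. The comparison took 6 of the 12 libraries of the series, chosen by their titles: 3 of wild type (WT) and 3 labelled Chd5-/-, all taken at 3 h. The other 6 are the same genotypes at 48 h. The series asks how loss of Chd5 affects expression as neural stem cells turn into neurons. In both genotypes the cells had been grown in DMEM/F-12 with N-2 supplement, EGF and FGF2, and the medium was then exchanged for neurobasal medium with B-27 supplement, so all 6 libraries come from cells that had recently lost both growth factors. No strain, age, sex, brain region or clone is stated in the labels, nor which part of Chd5 is missing. No animals or cultures are named for the replicate numbers either, so a p-value here weighs a difference only against the spread of these libraries, which may be technical.

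Chd5 encodes a chromodomain helicase, an ATP-driven remodeller of nucleosomes that belongs with Chd3 and Chd4 to the NuRD deacetylase complex and is found mostly in neurons and testis. Earlier work on mouse cells described Chd5 as a tumour suppressor that acts through Cdkn2a, the gene of p16Ink4a and p19Arf. The p19Arf protein restrains Mdm2, the ligase that marks p53 for destruction, and p53 in turn activates genes that stop the cell cycle, trigger cell death and feed back on p53. Neural stem cells are progenitors that give rise to neurons, astrocytes and oligodendrocytes. When growth factors are withdrawn they leave the cell cycle over days and begin to differentiate, so 3 h is an early time.

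Promoters of 3 p53 target genes are printed because p53 targets form the list with the largest share of members higher at 3 h among those with 10 or more tested genes. The p53 protein binds a pair of half-sites of 10 letters each. Promoter windows from 250 bases before to 50 after the start of each gene (RefSeq, GRCm38.p6) were searched on both strands for the p53 consensus half-site pair, with the half-sites at most 13 bases apart and at most 1 mismatch in all. Capitals mark the matched half-sites.
Cdkn1a: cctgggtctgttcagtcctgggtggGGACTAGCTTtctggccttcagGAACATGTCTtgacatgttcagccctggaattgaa
Ccng1: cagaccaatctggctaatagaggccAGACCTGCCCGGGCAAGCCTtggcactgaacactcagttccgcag
Rps27l: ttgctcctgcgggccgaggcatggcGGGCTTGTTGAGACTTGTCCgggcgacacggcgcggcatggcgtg
The Cdkn1a stretch lies at chr17:29090881-29090962 on the plus strand, the Ccng1 stretch at chr11:40755437-40755506 on the minus strand and the Rps27l stretch at chr9:66946271-66946340 on the plus strand. The Cdkn1a pair has 0 mismatches and a spacer of 12 bases. The pairs of Ccng1 and Rps27l each have 1 mismatch and no spacer. A pair was present in 206 of 32851 promoters (0.627%). Among 48 promoters found for 32 genes of the p53 list it was present in 4 (8.33%), the fourth being that of Gtse1. Of 470 promoters of genes outside that list that rose at 3 h, 5 held a pair (1.06%). A match describes these letters only, and sites outside the window were not searched.

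The 3 h libraries held 14.11 to 18.71 M estimated reads. Wild-type replicate 1 stood apart from replicates 2 and 3: the mean transcript length weighted by reads was 1805 bases in it against 3049 and 3077, ribosomal protein genes took 15.49% of them against 4.18% and 4.03%, and mitochondrial genes 0.53% against 2.17% and 2.29%. The libraries labelled Chd5-/- resembled replicates 2 and 3 in these measures (3040 to 3155 bases). Results are therefore given with all libraries and again from a fit on 5 libraries at 3 h that leaves wild-type replicate 1 out, called here the 5-library fit. Chd5 RNA showed no loss in cells labelled Chd5-/-. Wild-type libraries had 3.54, 3.93 and 4.66 CPM (counts per M reads, scaled between libraries) of it, and the others 5.25, 6.31 and 7.06 CPM, a log2 fold change of 0.61 ± 0.31 (SE, adjusted p = 0.257). The higher level passed in the 5-library fit (0.53), and the difference turned to -0.25 on the log2 scale with an offset for transcript length. The coding transcript Chd5-205 had 0, 54.5 and 55.9 estimated reads in wild type and 0 in the others. Chd5-202 had 0 in wild type and 71.8, 86.4 and 22.9 in the others, and Chd5-201 had 5.7, 0 and 0 against 0, 0 and 98.7. Salmon divides reads among overlapping transcripts, so these assignments are uncertain. Since reads can also come from parts of the gene that were not deleted, the Chd5 level does not check the label, and "labelled Chd5-/-" names the deposited genotype throughout. Markers of neural stem cells summed to 9118 to 9289 CPM in wild type and 12126 to 12307 CPM in those labelled Chd5-/-, so the labelled cell type is present in both. Markers of ependyma and choroid plexus summed to 61.7 to 105 CPM in wild type and 59.7 to 64.2 CPM in those labelled Chd5-/-. Those of microglia, endothelium, and fibroblasts with mural cells were lower. They summed to 0.709 to 2.16, 3.04 to 7 and 5.47 to 11.8 CPM in wild type and to 0.171 to 0.279, 0.74 to 1.01 and 0.569 to 1.84 CPM in the others. The 4 erythroid markers were at 0 in all 6 libraries, and 3 of 7 microglial and 1 of 6 endothelial markers were at 0. In bulk RNA, fewer cells of a type and less RNA per cell cannot be told apart.

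At 3 h, 1077 of 16043 tested genes (6.71%) differed at an adjusted p under 0.05 by edgeR's quasi-likelihood test. In cells labelled Chd5-/- 519 of them were higher (3.24%) and 558 lower (3.48%). At least a 2-fold change was present in 1015 (6.33%). The median size of a called difference was 2.52 on the log2 scale, and 108 genes rose and 116 fell by more than 16-fold. Many were close to all or nothing: 50 of the genes that rose had 3 reads or fewer in all of wild type together, and 61 of those that fell had 3 or fewer in all of those labelled Chd5-/-. Without wild-type replicate 1 and the 48 h libraries, 8250 of 15030 genes passed (54.9%), 4301 higher (28.6%) and 3949 lower (26.3%), of which 2128 changed at least 2-fold (14.2%), 1014 of them higher (6.75%) and 1114 lower (7.41%). Of the 1077 genes, 1042 passed there in the same direction, 0 in the opposite one, and 35 were not tested. The number called was 1636 of 16728 (9.78%) without wild-type replicate 1 alone. It was 442, 433 and 419 without replicate 1, 2 or 3 labelled Chd5-/-, and 879 and 1005 without wild-type replicate 2 or 3. Of the 125 called genes described here, 90 kept their call in each of these 6 fits, and the others are named where they appear. All 6 libraries separated the groups without overlap for 7223 of the 16043 genes (45%).

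**Figure D1:**
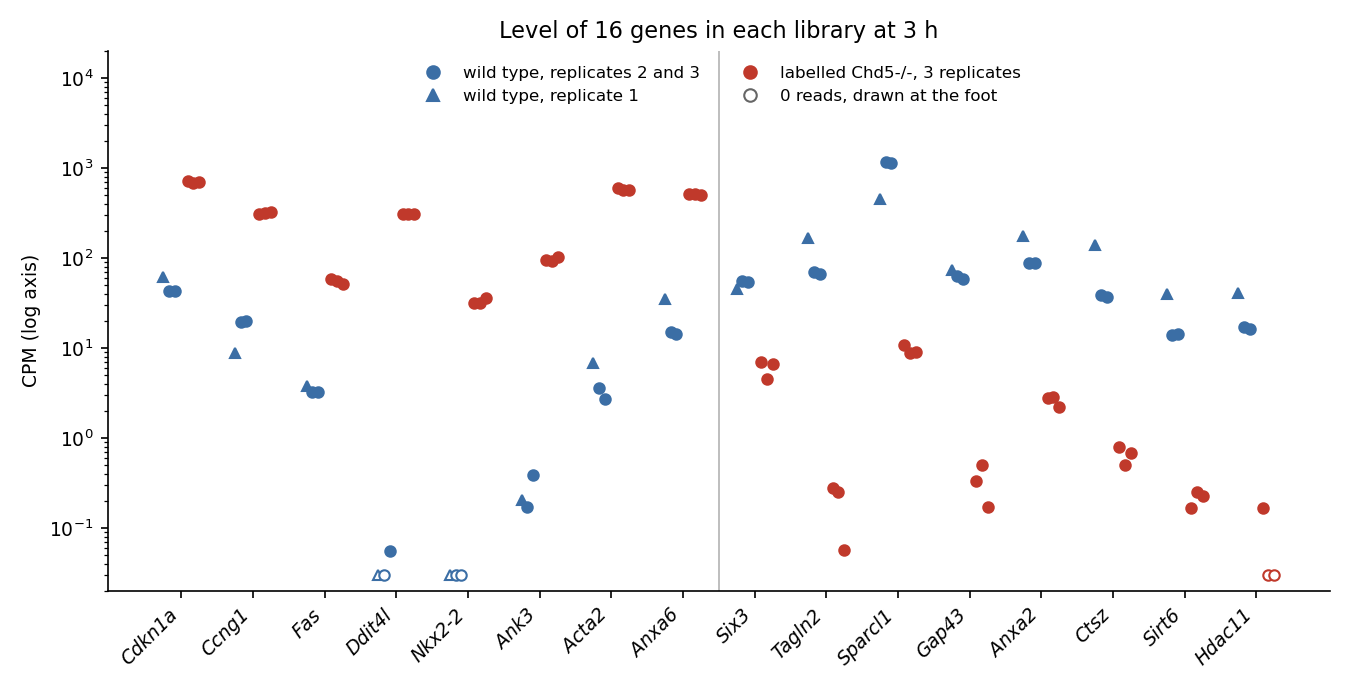
Level of 16 genes in each of the 6 libraries at 3 h, in CPM on a log axis, with wild type in blue (replicate 1 as a triangle) and libraries labelled Chd5-/- in red; open symbols at the foot stand for 0 reads. The 8 genes left of the line are higher and the 8 right of it lower in all 3 libraries labelled Chd5-/-, with Ddit4l at 305 to 309 CPM against 1 read in wild type and Nkx2-2 at 0 reads in all of wild type.

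Targets of p53 were higher in the libraries labelled Chd5-/-. Of 39 tested members 18 rose, 0 fell and 21 did not pass (46.2% called), with a median log2 fold change of 1.15, where the median over all tested genes was -0.02. In the 5-library fit 33 rose and 5 fell, 21 of the former and 0 of the latter by at least 2-fold, with a median of 1.46. Summed over the 40 genes of the list, the level was 2179.8 to 2317 CPM in wild type and 5284 to 5316 CPM in those labelled Chd5-/-. Among the members that stop the cell cycle, Cdkn1a, the gene of the kinase inhibitor p21 (ENSMUSG00000023067, chromosome 17, 29090976 to 29100727, GRCm38), had 61.8, 42.4 and 43.3 CPM in wild type. The others had 709, 687 and 691 CPM, a rise of 3.82 ± 0.29 on the log2 scale (SE, n = 3 in each group, adjusted p = 6.37e-05). Its main transcript of 1913 bases carried the gain, with 609 to 774.3 estimated reads against 10579.2 to 12428.9. Ccng1, which encodes cyclin G1 (ENSMUSG00000020326, chromosome 11, 40748552 to 40755311), had 8.81, 19.5 and 20.1 CPM in wild type and 306, 316 and 321 CPM in the others. Zmat3, an RNA-binding regulator of p53-dependent growth, had 14.7, 29.2 and 23.7 CPM against 111, 119.6 and 127 CPM. For all 3 genes the groups were far apart, and wild-type replicate 1 was the highest wild-type library for Cdkn1a and the lowest for Ccng1 and Zmat3.

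Genes tied to cell death gave mixed results. Of those named in the next sentences, Fas, Tnfrsf10b, Phlda3, Gdf15, Bbc3, Bax and Bid were chosen after their values were seen. Fas, the receptor of Fas ligand (ENSMUSG00000024778, chromosome 19, 34290666 to 34327772), had 3.75, 3.19 and 3.27 CPM in wild type, and the other 3 libraries had 58.1, 55.6 and 51.3 CPM (4.01 ± 0.67, adjusted p = 0.00512). Tnfrsf10b, a receptor of the ligand TRAIL, had 0.203, 0.569 and 0.888 CPM against 3.97, 5.05 and 5.12 CPM. Eda2r, a receptor of ectodysplasin A2, had 1.32, 8.54 and 8.32 CPM against 99.5, 109 and 109 CPM. Pmaip1, the gene of the BH3 protein Noxa, had 1.92, 4.95 and 4.16 CPM against 25.9, 28.5 and 24.6 CPM, and Phlda3, an inhibitor of Akt on chromosome 1, 23.6, 6.21 and 7.82 CPM against 87.9, 78.6 and 85.3 CPM. Bbc3, the gene of the BH3 protein Puma, did not pass, with 5.67, 3.25 and 2.66 CPM in wild type and 12.2, 11.2 and 13.1 CPM in the others (1.67 ± 0.49, adjusted p = 0.0705; 2.04 and past the threshold in the 5-library fit). Bax, which opens the outer mitochondrial membrane, did not pass either (272, 64.2 and 66.3 CPM against 154, 139 and 139.9 CPM; 0.10 ± 0.46, adjusted p = 0.911). Its value turned on wild-type replicate 1, being 1.14 and past the threshold in the 5-library fit. Bid, a BH3 protein gene that is not in the p53 list, fell (17.8, 21.4 and 20.1 CPM against 8.61, 8.59 and 7.97 CPM; -1.24 ± 0.23, adjusted p = 0.00878), a call lost without any 1 of the libraries labelled Chd5-/- (adjusted p up to 0.0646). The secreted stress cytokine Gdf15 had 0.405, 0.0569 and 0.111 CPM in wild type and 15.8, 12.5 and 14.1 CPM in the others (6.35 ± 1.24, adjusted p = 0.0124; 7.27 in the 5-library fit). The fold change of Phlda3 was 2.75, and 3.58 in the 5-library fit.

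The genes around p53 itself moved less. Trp53, which encodes p53, did not pass, with 138, 125 and 118 CPM in wild type and 98.5, 102 and 104 CPM in those labelled Chd5-/- (-0.33 ± 0.21, adjusted p = 0.384). Mdm2, the ligase that is itself a p53 target, rose by 1.17 ± 0.24 on the log2 scale (26.6, 46.9 and 49.4 CPM against 92.3, 95.8 and 87.9 CPM). Most of that gain lay on Mdm2-209, a transcript annotated for nonsense-mediated decay, with 257.8, 284.7 and 485.2 estimated reads in wild type and 1020.2, 1102.8 and 1023.5 in the others. The coding transcript Mdm2-201 had 5.2, 393.7 and 160.8 reads against 155.1, 0 and 105.6, so the groups overlapped. The call of Mdm2 was lost without any 1 of the libraries labelled Chd5-/- (adjusted p up to 0.0718). Rps27l, a ribosomal-like p53 target whose promoter is printed above, did not pass and depended on wild-type replicate 1: it had 341, 97.4 and 95.8 CPM in wild type and 170.3, 159 and 144 CPM in the others, and its log2 fold change was -0.17 with all libraries and 0.7 in the 5-library fit.

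Of the 7 inhibitors of cyclin-dependent kinases of the INK4 and CIP families, 3 rose, 1 fell and 3 did not pass. Beside Cdkn1a, Cdkn2b (p15Ink4b) had 0.911, 0.114 and 0.444 CPM in wild type and 3.74, 3.98 and 2.9 CPM in those labelled Chd5-/- (2.92, and 3.62 in the 5-library fit). Cdkn1c (p57) had 3 reads in wild type and 0.894, 0.568 and 1.02 CPM in the others, a ratio of 12.6 (95% counting interval 4.3 to 60.9). The member that fell was Cdkn2a (ENSMUSG00000044303, chromosome 4, 89274471 to 89294653), the neighbour of Cdkn2b. Its 618, 139 and 141 CPM in wild type compare with 37.8, 32.9 and 32.7 CPM in those labelled Chd5-/- (-3.12 ± 0.59, adjusted p = 0.0108; -2.02 in the 5-library fit). Both of its coding transcripts were lower. Cdkn2a-202 (895 bases) had 5928.6, 2407.9 and 2524.1 estimated reads in wild type and 671.9, 518.9 and 572.9 in the others, and Cdkn2a-201 (852 bases) had 173.4, 38.1 and 13.9 against 5.1, 2.1 and 2.1. Calls of Cdkn2a, Cdkn2b and Cdkn1c were lost without replicate 1 or without replicate 2 labelled Chd5-/-, those of Cdkn2a and Cdkn1c also without replicate 3 so labelled, that of Cdkn2b without wild-type replicate 3 and that of Cdkn1c without wild-type replicate 2 (adjusted p up to 0.064, 0.0674 and 0.0923). For Cdkn1c the fitted log2 fold change was 3.49, and 2.87 and 4.18 without wild-type replicate 2 or 3.

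Genes that carry the cell cycle forward were tested next. By edgeR 0 of 22 genes of DNA replication passed (1 at an unadjusted p under 0.05, median -0.10), and 0 of 22 of mitosis (0 at an unadjusted p under 0.05, median 0.21). This fit took its spread from all 12 libraries, and at 48 h both lists varied widely within each genotype. Over wild-type replicates 1 to 3, mitosis genes summed there to 229, 3738 and 235 CPM, and replication genes to 529.6, 2786 and 544 CPM. Replicate 2 labelled Chd5-/- was likewise high, at 3276 and 2572 CPM. The lack of calls therefore cannot decide whether these genes differed at 3 h. For replication the 5-library fit had 5 genes higher and 12 lower, 1 of them by at least 2-fold. For mitosis it had 10 higher and 3 lower, 0 of them by at least 2-fold. Among 19 G1 cyclins, their kinases and pocket proteins, 1 rose (5.26%, against 6.71% over all tested genes). It was Cdk6, the partner of D-type cyclins, with 10.5, 10.2 and 10.1 CPM in wild type and 57.9, 61.6 and 66.9 CPM in those labelled Chd5-/- (2.59 ± 0.29, adjusted p = 4.98e-04). In the BCL2 family 1 of 14 members rose (Pmaip1) and 1 fell (Bid).

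Stress and growth signalling genes changed singly. Ddit4l, which restrains the growth kinase mTOR, had 1 read in all of wild type and 305, 309 and 305 CPM in the libraries labelled Chd5-/-, a ratio of 13923 (95% counting interval 2499 to 549932). Sesn2, a leucine sensor upstream of mTOR, had 60.7, 58.1 and 54.8 CPM against 271, 262 and 276 CPM (2.22 ± 0.57, adjusted p = 0.0438), a call lost without any 1 of the 6 libraries at 3 h (adjusted p up to 0.126). These were the 2 that rose of 20 mTOR inhibitors and regulators, and 0 fell (10% called, against 6.71% over all tested genes). Of 20 genes of the ATF4 stress response 2 rose and 0 fell (median 0.53), while in the 5-library fit 17 rose, 7 of them at least 2-fold, and 3 fell. One of the 2 was Slc7a11, the cystine transporter, with 4.66, 20.3 and 21.6 CPM in wild type and 141, 156 and 163 CPM in the others. In the list of NRF2 antioxidant genes Slc7a11 was the 1 of 18 that rose, and the 1 that fell was Nqo1, a quinone reductase, with 34.5, 19.4 and 19.4 CPM against 0.559, 0.694 and 0.569 CPM (-5.31 ± 0.47). Of 24 immediate early genes, which respond to growth factors within minutes, 2 rose and 3 fell. Ier3, a survival gene, had 2 reads in wild type and 7.32, 6.31 and 6.89 CPM in the others (ratio 155, 95% counting interval 43 to 1284). Ier2 had 155, 46.3 and 46.1 CPM against 27.1, 23.5 and 23.6 CPM (-1.74, and -0.9 in the 5-library fit), a call lost without any 1 of the libraries labelled Chd5-/- (adjusted p up to 0.135). Of 17 feedback genes of growth factor signalling 0 passed, with 2 at an unadjusted p under 0.05, and of 7 ErbB and FGF receptors 1 rose. That was Fgfr2, with 5.87, 15.1 and 13.3 CPM in wild type and 50.2, 53.7 and 52.2 CPM in the others, a call lost without any 1 of the libraries labelled Chd5-/- (adjusted p up to 0.0642). For Ddit4l the fitted log2 fold change was 13.34, and 15.25 without wild-type replicate 3, and that of Ier3 was 7.01, and 6.39 without the same library.

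**Figure D2:**
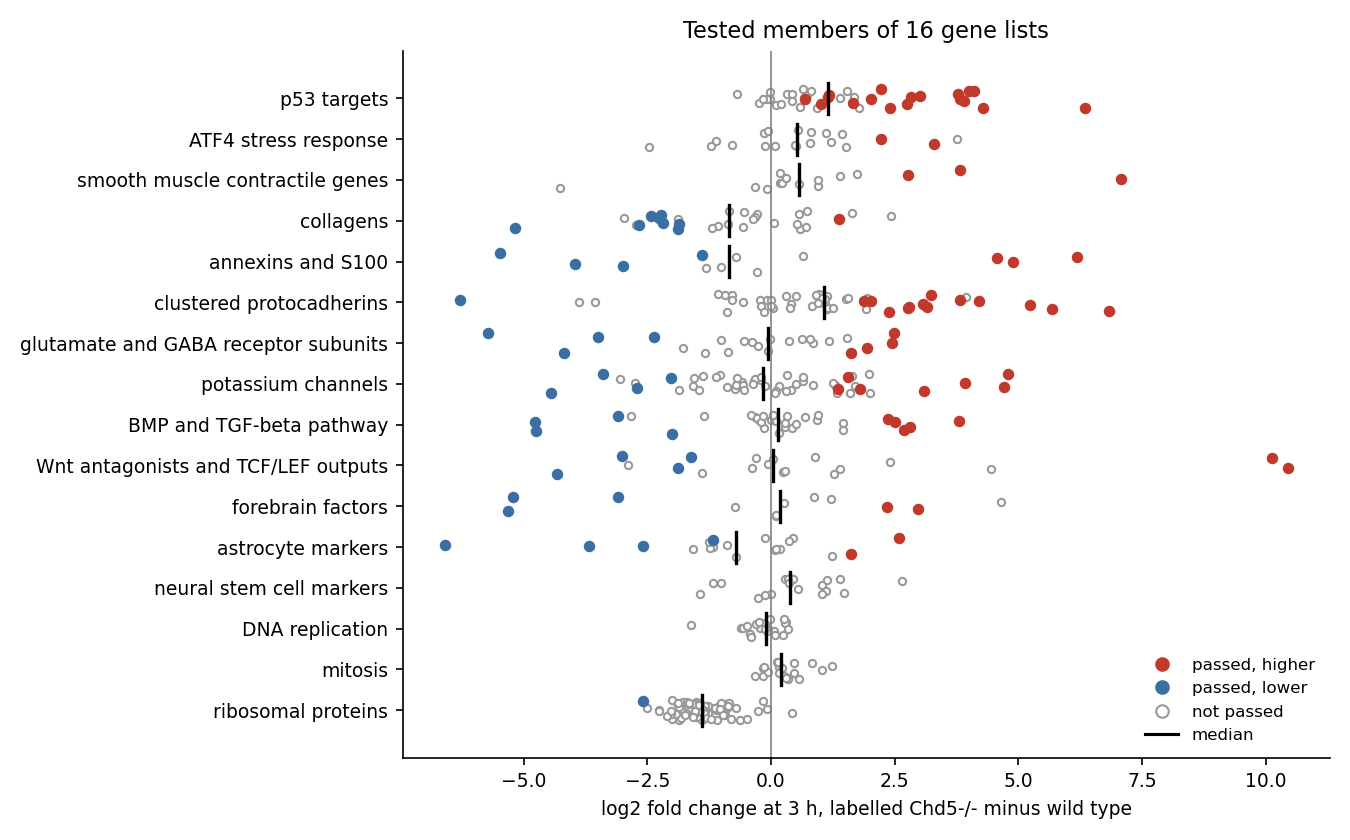
Log2 fold change at 3 h (labelled Chd5-/- minus wild type) of each tested member of 16 gene lists, 1 point per gene; filled points passed, higher in red and lower in blue, and black bars are medians. The median was 1.15 for p53 targets and -1.39 for ribosomal proteins with all libraries, the latter -0.04 in the 5-library fit.

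Transcription factors that mark regions of the neural tube differed in both directions. Of 12 tested forebrain factors 2 rose, 3 fell and 7 did not pass. Six3, a factor of the anterior forebrain and eye, had 45, 55.3 and 53.8 CPM against 6.99, 4.48 and 6.54 CPM, and the noncoding Six3os1 transcribed beside it had 45.1, 64.1 and 66.2 CPM against 2.01, 1.64 and 1.59 CPM. Lhx8, a factor of ventral forebrain neurons, had 2.94, 2.16 and 2.72 CPM in wild type against 3 reads in the others (ratio 44.6, 95% counting interval 15.3 to 216). Otx2, a factor of forebrain and midbrain, was higher, with 0.101, 0.285 and 0.333 CPM in wild type and 2.29, 2.34 and 1.48 CPM in the others (2.97 ± 0.64). Its call was lost without wild-type replicate 2 or any 1 of the libraries labelled Chd5-/- (adjusted p up to 0.0859). For Lhx8 the fitted value was -5.31, and -6.11 without replicate 1 labelled Chd5-/-.

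Among 9 midbrain and hindbrain factors 2 rose and 0 fell (median 0.84), and in the 5-library fit 7 of 8 rose and 0 fell. Irx1 rose from 0, 0.0569 and 0.166 CPM to 7.1, 5.68 and 6.77 CPM, and En2 from 2.43, 2.96 and 4.33 CPM to 17.4, 17.7 and 20 CPM. Of 12 Hox genes, which mark hindbrain and spinal cord, 1 rose (8.33%, against 6.71% over all tested genes). It was Hoxa5, with 13.1, 12.4 and 11.3 CPM in wild type and 32.2, 32.1 and 32.2 CPM in the others (1.39 ± 0.21, adjusted p = 0.00271). The median of the Hox list was 1.32, and 0.74 with members at 0 reads set at their bound. Nkx2-2, a factor of ventral progenitors and early oligodendrocytes, had 0 reads in all of wild type and 31.7, 31.1 and 35.5 CPM in those labelled Chd5-/-, at least 496-fold higher against a floor of 3 counts over the group. Its 2 coding transcripts, of 2120 and 1053 bases, had 431.5 to 487.6 and 51.7 to 134.5 estimated reads there. The fitted log2 fold change of Irx1 was 6.13, and 7.24 without wild-type replicate 3.

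Markers of glial and neuronal lineages were split. In the oligodendrocyte list 2 of 12 rose and 2 fell. Nkx2-2 and Gpr17, a receptor of committed precursors (0, 0.114 and 0.111 CPM against 0.727, 1.07 and 0.797 CPM), rose, while Bcas1, found in early myelinating cells, fell (86.7, 74.4 and 74 CPM against 10.5, 9.09 and 11 CPM). Mbp, a myelin protein gene, fell from 2.13, 1.08 and 1.22 CPM to 0.335, 0.126 and 0.228 CPM. Of 19 astrocyte markers 2 rose and 4 fell (median -0.70; 6 rose and 8 fell in the 5-library fit, median -0.05). Sparcl1, the matricellular protein hevin that astrocytes secrete, had 449.9, 1149.8 and 1131 CPM in wild type and 10.7, 8.71 and 8.88 CPM in those labelled Chd5-/- (-6.59 ± 0.53, adjusted p = 6.69e-05). The water channel gene Aqp4 had 1.92, 10.2 and 9.71 CPM against 0.503, 0.568 and 0.626 CPM, and the adhesion gene Hepacam 262, 182 and 185 CPM against 92.9, 90.5 and 94.2 CPM. Slc4a4, a bicarbonate transporter of astrocytes, went the other way, with 3.54, 22.9 and 20.5 CPM against 84, 93.1 and 104 CPM. Calls of Mbp and Slc4a4 were lost without replicate 2 or 3 labelled Chd5-/-, that of Aqp4 without replicate 1 and that of Hepacam without any 1 of the 3 (adjusted p up to 0.0772, 0.0584, 0.0541 and 0.0614).

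A list of 14 GABAergic genes had 5 tested members, of which 3 fell and 0 rose (median -1.61). The 2 that did not pass, Dlx1 and Dlx2, went the other way (0.87 and 1.21). Among those that fell were Lhx8 and Calb2, the calcium-binding calretinin, with 107, 45.3 and 39.8 CPM in wild type and 4.19, 4.04 and 4.38 CPM in the others (-3.92 ± 0.42, adjusted p = 4.02e-04; -3.34 in the 5-library fit). None of 19 neural stem cell markers, 12 SOX factors, 12 proneural factors or 10 HES, HEY and ID proteins passed in edgeR, with 6, 2, 4 and 2 at an unadjusted p under 0.05. The 5-library fit tested 19, 12, 10 and 9 of them. There 10 stem cell markers, 7 SOX factors, 8 proneural factors and 2 HES, HEY and ID genes rose, and 4, 3, 1 and 6 fell. Over all genes in that fit 28.6% rose and 26.3% fell. Fabp7, a fatty acid carrier of radial glia, had 2129.9, 1326 and 1291 CPM in wild type and 3651, 3412 and 3232 CPM in those labelled Chd5-/- (1.12 ± 0.34, adjusted p = 0.0825), a difference that did not pass with all libraries and did in the 5-library fit (1.39). Map2, a dendritic microtubule protein whose gene lies on chromosome 1, had 114, 476 and 489.9 CPM against 1095, 1178 and 1212 CPM (1.69 ± 0.46, adjusted p = 0.0519). Neuron markers summed to 235 to 642 CPM in wild type and 1194 to 1303 CPM in the others, a sum in which Map2 is by far the most abundant gene. The sum therefore follows Map2 and does not show a rise of the list. The median log2 fold change of its 5 tested members was -0.35. In the 5-library fit it was -0.71 over 3 members, of which 1 rose and 2 fell.

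Collagen genes that passed were mostly lower. Of 29 tested collagens 1 rose, 8 fell and 20 did not pass (31% called, median -0.84). Of 27 tested in the 5-library fit 7 rose and 15 fell, 3 and 12 of them at least 2-fold. The 5-library median was -0.79, and -0.36 outside chromosomes 1, 15 and 19. Col11a2, a fibrillar collagen of cartilage, had 7.7, 6.66 and 5.94 CPM in wild type and 1.62, 1.26 and 0.854 CPM in those labelled Chd5-/- (-2.43 ± 0.29, adjusted p = 7.55e-04). The neighbours Col6a1 and Col6a2, which encode chains of the beaded collagen VI, fell by 2.19 ± 0.39 and 1.88 ± 0.31 on the log2 scale from 3.44 to 5.01 and 2.73 to 2.89 CPM. Col3a1 had 3.04, 8.14 and 8.66 CPM against 0.279, 0.253 and 0 CPM, and Col5a2 1.72, 6.15 and 6.88 CPM against 0.782, 1.14 and 1.25 CPM. All of these are at low levels. Col3a1 and another of the 8 that fell are also among the 7 fibroblast markers, which summed to less in the libraries labelled Chd5-/- (values above). The part of these markers in the result was not tested. The collagen that rose, Col4a1 of the basement membrane, was more abundant, with 19.9, 48 and 48.2 CPM against 99.2, 99.9 and 102 CPM. Calls of Col3a1, Col5a2 and Col4a1 were lost without any 1 of the libraries labelled Chd5-/-, and that of Col4a1 also without wild-type replicate 2 (adjusted p up to 0.0917, 0.0788 and 0.126). Matrix genes outside the collagens reached 0 reads. Edil3, which encodes a secreted integrin ligand, had 5.47, 34.9 and 35.8 CPM in wild type against 0 reads in the others (at least 434-fold lower), and Mfap4, a microfibril protein, had 9.42, 3.13 and 3.5 CPM and 0 reads (at least 91.5-fold lower). Of 8 laminins 2 rose and 0 fell, led by Lama4, a chain of vascular basement membranes, with 2.94, 2.96 and 2.89 CPM against 20.3, 20 and 21.3 CPM. Of 18 integrins 1 rose and 1 fell, the former being Itga3, a laminin receptor (0.81, 0.854 and 0.666 CPM against 4.14, 3.85 and 4.1 CPM). Mfap4 had a fitted log2 fold change of -9.41, and of -8.80 without wild-type replicate 1.

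Annexins, which bind membranes in the presence of calcium, and their S100 partners changed at 7 of 12 tested members, 3 higher and 4 lower (58.3% called). Anxa6 had 34.7, 15.1 and 14.3 CPM in wild type and 508, 508 and 504 CPM in those labelled Chd5-/- (4.57 ± 0.4, adjusted p = 1.07e-04). Anxa7 rose from 0.911, 1.08 and 0.777 CPM to 29.3, 26.5 and 27.5 CPM, and Anxa4 from 0.101, 0 and 0.166 CPM to 6.09, 7.7 and 7.06 CPM. Anxa2 (ENSMUSG00000032231, chromosome 9, 69453620 to 69491795), which links actin to the plasma membrane, went down from 174, 87.4 and 87.1 CPM to 2.74, 2.84 and 2.22 CPM (-5.48 ± 0.43, adjusted p = 6.62e-05). Anxa1 fell from 217, 234 and 241 CPM to 87.1, 91.9 and 85.1 CPM, and S100a4 from 27.2, 5.3 and 6.16 CPM to 0.503, 1.39 and 0.569 CPM (-3.96, and -2.82 in the 5-library fit). The call of Anxa1 was lost without any 1 of the 6 libraries and that of S100a4 without wild-type replicate 1 or any 1 of those labelled Chd5-/- (adjusted p up to 0.183 and 0.147). Among cathepsins, the lysosomal proteases, 1 of 8 rose and 1 fell. The one that fell was Ctsz, with 139, 38.8 and 37.1 CPM in wild type and 0.782, 0.505 and 0.683 CPM in the others (-6.74, and -5.83 in the 5-library fit). For Anxa4 the fitted value was 6.18, and 5.56 and 7.24 without wild-type replicate 2 or 3, and that of S100a4 was -4.55 without replicate 2 labelled Chd5-/-.

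Of 15 tested contractile genes of smooth muscle 3 rose and 0 fell (median 0.56), and 12 rose and 2 fell in the 5-library fit. Acta2, the gene of smooth muscle actin (ENSMUSG00000035783, chromosome 19, 34241090 to 34255590), had 6.79, 3.59 and 2.72 CPM in wild type and 598, 574 and 566 CPM in those labelled Chd5-/- (7.07 ± 0.87, adjusted p = 8.27e-04). The actin-binding Tagln had 0.81, 0.399 and 0.166 CPM against 6.48, 6.31 and 5.86 CPM (3.82, and 4.43 in the 5-library fit). Tagln2, its close relative that is found in many cell types, went the opposite way, from 167, 69.4 and 66.3 CPM to 0.279, 0.253 and 0.0569 CPM. Of 6 mesenchymal transition factors 0 rose and 2 fell, one of them Twist1, with 2.23, 1.77 and 2 CPM in wild type against 2 reads in the others (ratio 51.2, 95% counting interval 14.2 to 423).

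Cell adhesion genes of the clustered protocadherins, which give single neurons a surface identity, rose at 13 of 50 tested members and fell at 1 (28% called; median 1.06). In the 5-library fit 21 of 40 tested members rose and 7 fell. All lie on chromosome 18, and the members that rose lay in all 3 clusters. Pcdhgb7 had 0.101, 3.13 and 3.44 CPM in wild type and 84.5, 88.8 and 87.4 CPM in those labelled Chd5-/- (5.24 ± 0.74, adjusted p = 0.00203), and Pcdhga6 0, 0.626 and 1.22 CPM against 35.5, 32.6 and 34.6 CPM. Pcdhb8 had 0.101, 0.171 and 0.61 CPM against 6.15, 6.38 and 5.18 CPM, and Pcdhb5 0.506, 1.31 and 1.05 CPM against 6.54, 7.13 and 6.49 CPM. Pcdhgb5 did the reverse, with 1.42, 60.8 and 58.1 CPM in wild type and 0.727, 0.568 and 0.228 CPM in the others. Leaving out replicate 2 or 3 labelled Chd5-/- ended its call (adjusted p up to 0.0563). Wild-type replicate 1, whose reads lie on short transcripts, was far below replicates 2 and 3 for Pcdhgb7 and Pcdhgb5. Exons shared by the members of a cluster can make Salmon divide reads among them, so levels of single members are uncertain. Of 30 cadherins and other protocadherins 2 rose and 1 fell (10% called, against 6.71% over all tested genes), led by Cdh10 with 0.203, 0.797 and 0.832 CPM against 9.95, 10.1 and 9.9 CPM. Without wild-type replicate 3 the fitted log2 fold changes of Pcdhga6 and Pcdhb8 were 6.54 and 5.30, against 5.68 and 4.20 with it.

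Genes of the growing neuron changed in both directions. Of 15 stathmins and growth cone proteins 3 rose and 2 fell. Gap43, the growth cone protein (ENSMUSG00000047261, chromosome 16, 42248442 to 42340651), had 74, 62.1 and 58.5 CPM in wild type and 0.335, 0.505 and 0.171 CPM in the 3 labelled Chd5-/- (-7.57 ± 1, adjusted p = 0.00135), and Dpysl5, a collapsin response mediator, 34.9, 39.9 and 36.8 CPM against 7.71, 8.33 and 8.42 CPM. Stmn3, a tubulin-binding stathmin of neurons, rose from 3.34, 0.968 and 1.83 CPM to 33.2, 28.9 and 30.2 CPM. Among 17 neuronal microtubule proteins 2 rose and 1 fell. Map1b rose from 13.4, 54.1 and 53.5 CPM to 138, 158 and 161 CPM. Tubg2, a gamma-tubulin, had 0 reads in wild type and 1.01, 0.758 and 0.911 CPM in the others (at least 13.5-fold higher). Calls of Dpysl5 and Map1b were lost without any 1 of the libraries labelled Chd5-/- (adjusted p up to 0.0721 and 0.0849). Of 14 ankyrins and partners of the axon initial segment 1 rose (7.14% called, against 6.71% over all tested genes). That was Ank3, the gene of ankyrin-G (ENSMUSG00000069601, chromosome 10, 69398773 to 70027438), with 0.203, 0.171 and 0.388 CPM in wild type and 94.1, 93.2 and 103 CPM in the others (8.5 ± 0.54, adjusted p = 2.27e-05). Its reads were spread over several coding transcripts, the largest share on Ank3-210 (659.7, 563.8 and 684.6) and Ank3-231 (466.9, 374.9 and 510.2), which had 5 and 0 reads in all of wild type.

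In the lists of guidance cues and their receptors 6.25% to 13.3% of the tested members passed, against 6.71% over all tested genes. Of 30 semaphorins and plexins 1 rose and 3 fell. Sema5b fell from 37.1, 57.3 and 57.3 CPM to 9.17, 9.22 and 9.62 CPM and Sema4b from 74.9, 72.7 and 66.2 CPM to 13.4, 14.3 and 17.1 CPM. Of 18 ephrins and Eph receptors 1 rose and 1 fell, the former being the ligand Efna1, with 0 reads in wild type and 0.727, 0.694 and 0.683 CPM in those labelled Chd5-/- (at least 10.6-fold higher). Of 16 netrins, slits and their receptors 0 rose and 1 fell. This was Robo2, a slit receptor, with 19.7, 57.6 and 64.3 CPM against 7.32, 9.41 and 7.85 CPM, whose call was lost without any 1 of the libraries labelled Chd5-/- (adjusted p up to 0.0933).

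Receptors of synaptic signalling changed in both directions. Of 23 glutamate and GABA receptor subunits 4 rose and 4 fell (34.8% called; median -0.05). The 4 that fell are glutamate receptor genes. Grik2, a kainate receptor subunit, had 2.43, 9.85 and 10.4 CPM in wild type and 0.0559, 0.253 and 0.114 CPM in those labelled Chd5-/- (-5.71 ± 0.72, adjusted p = 0.001), the metabotropic Grm3 8, 19.9 and 20.6 CPM against 1.45, 1.58 and 1.25 CPM, and the NMDA receptor subunit Grin2c 3.54, 1.54 and 1.78 CPM against 0.112, 0.0631 and 0.171 CPM. Among those that rose was the GABA-A receptor subunit Gabrb1 (0.304, 0.285 and 0.444 CPM against 1.9, 1.89 and 2.16 CPM). Of 52 potassium channel genes 7 rose and 4 fell (21.2% called, median -0.16). Of 49 tested in the 5-library fit 12 rose and 10 fell by at least 2-fold. The pore subunit of the calcium-activated BK channel, Kcnma1, and its partner Kcnmb1 both rose, from 0.203, 0.399 and 0.61 CPM to 10.6, 10.4 and 12.6 CPM and from 0.709, 0.512 and 0.444 CPM to 15, 16.1 and 14.6 CPM. Kcnv1, a silent modifier subunit, rose from 1.72, 5.81 and 5.22 CPM to 62.6, 68 and 65.9 CPM. Of 18 genes of synaptic vesicles and release 2 rose and 1 fell. Rimbp2, an active zone scaffold, had 2 reads in wild type and 29.6, 27.3 and 29.3 CPM in the others (ratio 654, 95% counting interval 181 to 5397), and the complexin Cplx1 3.95, 2.85 and 1.94 CPM against 33.8, 31 and 34.5 CPM. Without replicate 2 labelled Chd5-/- the fitted log2 fold change of Grik2 was -6.36. That of Rimbp2 was 9.05, and 11.92, 8.42 and 8.41 without wild-type replicate 1, 2 or 3.

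In the Wnt pathway, which keeps progenitors dividing and patterns the neural tube, 1 of 10 frizzled receptors rose (10%, against 6.71% over all tested genes). Of 8 Wnt ligands 0 passed (3 at an unadjusted p under 0.05). The receptor was Fzd10, with 0.405, 0.171 and 0.111 CPM in wild type and 44.4, 48.8 and 49 CPM in those labelled Chd5-/- (7.78 ± 1.41, adjusted p = 0.00853). Of 19 antagonists and TCF/LEF outputs 2 rose and 4 fell (31.6% called). The 2 that rose, Shisa6 and Sostdc1, belong to families of Wnt antagonists. Each had 1 read in wild type, with 40.5, 41.6 and 44.8 CPM for Shisa6 (ratio 1923, 95% counting interval 345 to 75953) and 31.5, 33.4 and 34.7 CPM for Sostdc1 (ratio 1509, 271 to 59594) in the others. The Wnt-inhibitory membrane protein gene Tpbg fell from 12.5, 21 and 22.3 CPM to 0.95, 1.07 and 0.74 CPM, and Lef1, a transcription factor and target of the pathway, from 4.46, 9.62 and 9.99 CPM to 0.615, 1.2 and 1.14 CPM. The fitted log2 fold change of Shisa6 was 10.44, and 12.48 without wild-type replicate 1, and that of Sostdc1 was 10.13, and 12.05 without wild-type replicate 3.

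In the BMP and TGF-beta pathway 5 of 32 members rose and 4 fell (28.1% called; median 0.13), and ligands of the same family went opposite ways. Bmp7 rose from 9.82, 6.21 and 6.49 CPM to 52.8, 51.1 and 52.5 CPM (2.8 ± 0.44, adjusted p = 0.00372), and Tgfb2, on chromosome 1, from 2.94, 7.52 and 7.49 CPM to 39.2, 37 and 40 CPM. Bmp2 had 0.506, 0.797 and 0.888 CPM in wild type and 1 read in those labelled Chd5-/- (ratio 37.5, 95% counting interval 6.73 to 1480.3), and Tgfb1 fell from 11.1, 4.73 and 4.05 CPM to 0.95, 0.442 and 0.911 CPM (-3.09, and -2.49 in the 5-library fit). Among inhibitors of the pathway, Fst, the secreted activin trap follistatin, rose from 0.709, 1.99 and 2.11 CPM to 22.5, 22.9 and 23 CPM, and Smad6, which blocks BMP receptors inside the cell, fell from 0.405, 0.797 and 0.943 CPM to 1 read (ratio 36.7, 6.59 to 1449). Calls of Bmp2 and Smad6 were lost without replicate 1 or 3 labelled Chd5-/- (adjusted p up to 0.0686 and 0.087). Without replicate 2 labelled Chd5-/- the fitted log2 fold changes of Bmp2 and Smad6 were -6.59 and -6.57, against -4.77 and -4.75 with it.

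Other signalling lists held 1 to 3 called members each, 7.14% to 25% of those tested, against 6.71% over all tested genes. The Hedgehog, nuclear receptor and Notch lists were nearest to that share (7.14%, 8% and 10%). In the Notch list 1 of 20 rose and 1 fell: Dner, a Notch ligand of neurons on chromosome 1, rose from 24.9, 85 and 83.4 CPM to 373, 389 and 396 CPM, and the glycosyltransferase Mfng fell from 20.3, 9.91 and 8.27 CPM to 1.34, 0.505 and 0.854 CPM. Of 14 Hedgehog genes 0 rose and 1 fell. Of 12 genes of retinoic acid, a signal that patterns the hindbrain, 0 rose and 3 fell (median -1.18). Of 9 tested in the 5-library fit 3 rose and 6 fell. The synthesis enzyme Aldh1a3 fell from 31.3, 28.1 and 29.7 CPM to 5.87, 6 and 5.52 CPM and the receptor Rara from 33.4, 18.6 and 19.5 CPM to 7.71, 9.72 and 10.5 CPM. Of 25 other nuclear receptors 2 rose and 0 fell, among them Esrrb, a pluripotency-associated receptor, from 0.405, 0.512 and 0.555 CPM to 1.96, 2.53 and 2.73 CPM. Of 14 insulin and IGF genes 0 rose and 2 fell, among them the binding protein gene Igfbp7, with 2.43, 1.14 and 0.943 CPM in wild type and 1 read in those labelled Chd5-/- (ratio 77.2, 95% counting interval 13.9 to 3048). Calls of Aldh1a3, Rara and Esrrb were lost without replicate 2 or 3 labelled Chd5-/-, and those of Aldh1a3 and Rara also without replicate 1 (adjusted p up to 0.1, 0.0853 and 0.0701). For Igfbp7 the fitted log2 value was -5.77, and -7.56 without replicate 3 labelled Chd5-/-.

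In the chromatin lists 6.67% to 11.1% of the tested members passed, against 6.71% over all tested genes, and some of those fell by large folds. Of 18 histone deacetylases and sirtuins 0 rose and 2 fell. Hdac11 (ENSMUSG00000034245, chromosome 6, 91156665 to 91174692), which removes fatty acyl groups from proteins, had 40.2, 17.1 and 16.3 CPM in wild type against 3 reads in those labelled Chd5-/- (ratio 419.6, 95% counting interval 144 to 2035). Sirt6, a deacetylase of histone H3 that guards genome stability (ENSMUSG00000034748, chromosome 10, 81621785 to 81627797), had 39.5, 14 and 14.2 CPM against 0.168, 0.253 and 0.228 CPM (-6.66 ± 0.51, adjusted p = 6.37e-05; -6 in the 5-library fit). Its coding transcripts Sirt6-201 and Sirt6-202 had 163.1 to 282.3 and 47.6 to 107.7 estimated reads in wild type and 0 to 4 and 0 to 3 in the others. Of 9 chromodomain helicases 0 rose and 1 fell. Chd3, also the 1 of 15 NuRD subunits that fell, had 39.7, 57.8 and 57.9 CPM in wild type and 24.9, 27.5 and 29.9 CPM in the others (-0.92 ± 0.2, adjusted p = 0.0236), a call lost without wild-type replicate 2 or 3 or any 1 of those labelled Chd5-/- (adjusted p up to 0.132). In the Polycomb list 2 of 27 rose and 0 fell, led by Phf19, which recruits the PRC2 complex, from 7.39, 7.52 and 8.44 CPM to 63.2, 59.5 and 64.3 CPM. Of 28 BAF subunits 1 rose and 1 fell, whereas the 5-library fit had 2 of 26 higher and 14 lower, 0 and 1 of them by at least 2-fold. The member that fell with all libraries was Bcl11a, a neuronal subunit, which had 1.32, 2.39 and 2.33 CPM in wild type against 3 reads in the others (ratio 34.4, 95% counting interval 11.8 to 167). Of 13 DNA methylation and demethylation enzymes 0 rose and 1 fell, the glycosylase Mpg (9.32, 3.64 and 4.33 CPM against 2 reads; ratio 148, 40.9 to 1221). Of 21 imprinted genes 1 rose and 1 fell: Cdkn1c, given above, and Ndn, the growth suppressor necdin, which fell from 62.6, 41.9 and 40.5 CPM to 5.42, 6.5 and 7.57 CPM. For Hdac11 the fitted value was -8.54, and -11.60 without replicate 1 labelled Chd5-/-, and that of Bcl11a was -4.95, and -5.77 without replicate 3 so labelled.

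Housekeeping lists were tested with and without wild-type replicate 1. Of 77 tested ribosomal protein genes 0 rose and 1 fell, with a median of -1.39 and 52 at an unadjusted p under 0.05, whereas the median was -0.04 in the 5-library fit (10 rose and 14 fell). Wild-type replicate 1 carried 221053 CPM of these genes. The 1 that fell, Rpl21, had 4517, 641 and 618 CPM in wild type and 346, 322 and 299 CPM in the others (-2.58, and -0.97 in the 5-library fit; the call was lost without any 1 of those labelled Chd5-/-, adjusted p up to 0.166, and in the fit on 10 libraries, 0.0555). Of 13 mitochondrial mRNAs, 22 cholesterol synthesis genes and 18 glycolysis genes 0 passed in edgeR, with 0, 2 and 3 at an unadjusted p under 0.05 and medians of 0.53, -0.17 and -0.33. In the 5-library fit these lists had 6, 1 and 10 members higher and 0, 16 and 7 lower, of which 0, 0 and 2 changed at least 2-fold. Of 26 interferon response genes 1 rose and 0 fell, while of 24 in the 5-library fit 5 rose and 12 fell, 2 and 7 of them by at least 2-fold. The gene that rose with all libraries was Ifit2, on chromosome 19, with 0.101, 2.39 and 1.94 CPM in wild type and 14.5, 16.2 and 15.8 CPM in those labelled Chd5-/-, a call lost without any 1 of the latter (adjusted p up to 0.0599). The list's median was -0.84, and -0.74 with members at 0 reads set at their bound. Of the tested markers of other cells, 1 of 4 endothelial genes fell (Tek, a receptor of angiopoietins, whose call was lost without replicate 2 labelled Chd5-/-, adjusted p = 0.0593; list median -1.93, and -1.92 with members at their bound) and both fibroblast genes, while 0 of 1 microglial, 0 of 5 neuronal and 0 of 1 ependymal genes passed. The fibroblast genes that fell are collagens already counted above.

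Genes outside these lists changed by large folds in both directions. Pcp4l1, which encodes a small calmodulin-binding peptide (ENSMUSG00000038370, chromosome 1, 171173262 to 171196268), had 9.01, 5.41 and 4.94 CPM in wild type and 416, 388 and 399 CPM in those labelled Chd5-/- (5.96 ± 0.48, adjusted p = 6.69e-05). Trim9, a ubiquitin ligase of axons, rose from 34.2, 72.4 and 75.9 CPM to 409.6, 418 and 433 CPM, and Adgrv1, a very large adhesion receptor, from 0.101, 1.2 and 0.777 CPM to 70.2, 66.7 and 65.7 CPM. Zcchc12, a zinc finger co-activator of the X chromosome, fell from 40.3, 92.1 and 85 CPM to 0.0559, 0.189 and 0.285 CPM, and Mxra8, a matrix remodelling receptor, from 91, 67.3 and 71.8 CPM to 1.29, 1.14 and 1.37 CPM. Coro2b, an actin-binding coronin, fell from 177, 130 and 136 CPM to 8.61, 8.9 and 7.4 CPM. The fitted log2 fold change of Adgrv1 was 6.51, and 7.10 without wild-type replicate 2.

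Differences varied with the chromosome a gene lies on. Levels of 11433 genes with a mean of at least 5 CPM were compared as log2(CPM + 1), each library labelled Chd5-/- against the mean of wild-type replicates 2 and 3. On chromosome 1 the median of 659 genes was 0.51, 0.52 and 0.52 in the 3 libraries, with 88% of the genes higher, and on chromosome 19 that of 417 genes was 0.54, 0.51 and 0.53, with 87.5% higher. On chromosome 15 the median of 454 genes was -0.25, -0.27 and -0.25, with 23.6% of the genes higher. The other 17 chromosomes had medians between -0.08 and 0.03 for the mean of the 3 libraries. Wild-type replicates 2 and 3 differed from each other by medians of -0.02 to 0.02, so the shifts of chromosomes 1, 15 and 19 lay outside the spread of those replicates and had the same size in every library labelled Chd5-/-. Against the mean of all 3 wild-type libraries, in which replicate 1 had chromosome medians from -0.88 to 0.36, the medians of chromosomes 1, 19 and 15 were 0.68, 0.44 and -0.27. No test was made of these medians, which were looked at after the data were seen.

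**Figure D3:**
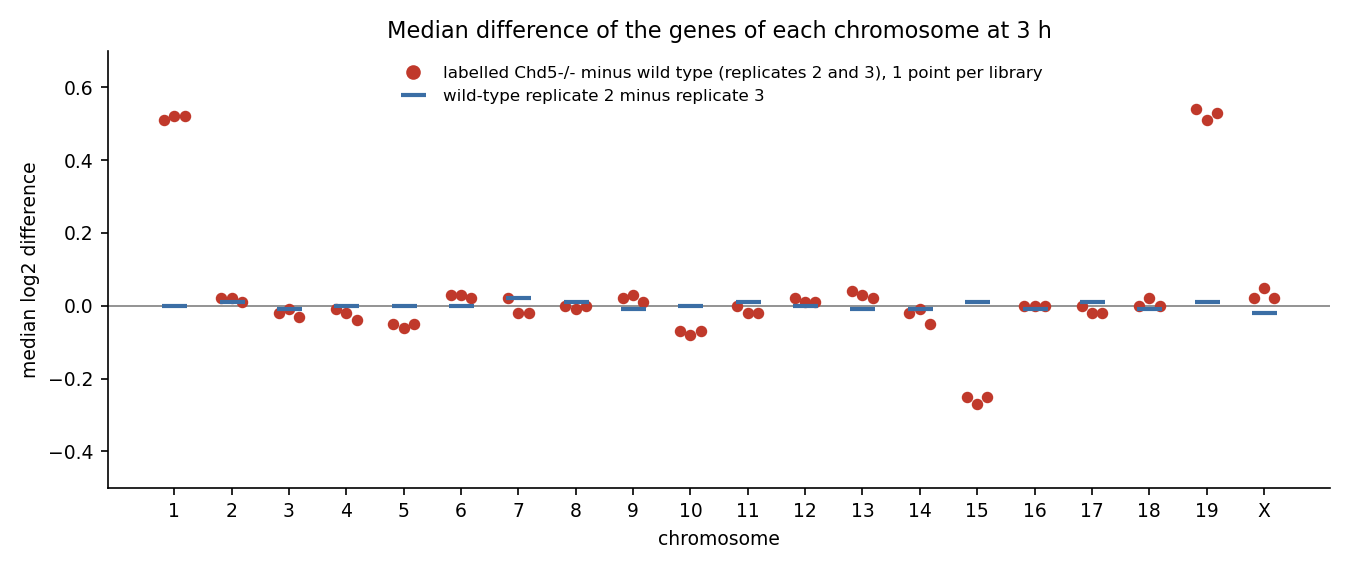
Median over the genes of each chromosome of the log2(CPM + 1) difference at 3 h; red points are the 3 libraries labelled Chd5-/- against the mean of wild-type replicates 2 and 3, and blue bars are wild-type replicate 2 minus replicate 3. Chromosomes 1 and 19 lie at 0.51 to 0.54 and chromosome 15 at -0.27 to -0.25 in all 3 libraries, while wild-type replicates differ by -0.02 to 0.02.

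The shift was present in most windows along these chromosomes. In windows of 10 Mb with at least 15 such genes, all 16 windows of chromosome 1 had a median above 0 (0.26 to 0.68) and the 6 of chromosome 19 lay between 0.47 and 0.64, while the 7 of chromosome 15 lay between -0.34 and -0.04. The first 10 Mb of chromosome 15 gave the -0.04, which is within the range of the other chromosomes. Of 205 windows on the other chromosomes 0 had a median above 0.3 and 2 one below -0.3. Called genes followed the same order. On chromosome 1 73 of 969 tested genes rose (7.53%) and on chromosome 19 55 of 541 (10.2%), against 3.24% over all genes, and on chromosome 15 38 of 625 fell (6.08%), against 3.48%. In the 5-library fit 66.5% and 69.6% of the tested genes of chromosomes 1 and 19 rose and 55.7% of those of chromosome 15 fell. Outside these 3 chromosomes the median of the p53 list in that fit was 1.52, against 1.46 with all members, and that of the collagens -0.36, against -0.79. Members described above that lie on chromosome 1 are Phlda3, Dner, Tgfb2, Tagln2, Pcp4l1, Map2, Col3a1 and Col5a2, on chromosome 19 Fas, Acta2, Anxa1 and Ifit2, and on chromosome 15 Cdh10, Kcnv1 and Mfng. DNA was not measured here, so the number of copies of a chromosome is not known for these cells, and its part in the differences was not tested.

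Shorter stretches stood out as well, picked after the values were seen. From Usp12 to Rfc3 at the end of chromosome 5 (146734809 to 151651242), all 24 genes of that level were lower in the libraries labelled Chd5-/-, with a median of -1.25 and a range of -1.83 to -0.66, and at 48 h all 24 were lower again (median -1.13). Of 39 tested genes there, 0 rose and 19 fell. They include Rpl21, Hmgb1, a chromatin protein of dividing cells (1069.7, 1570.3 and 1594 CPM against 539.9, 519 and 515 CPM), Hsph1, a heat shock protein (421, 641 and 652 CPM against 198, 199.9 and 196 CPM) and Pomp, an assembly factor of the proteasome (1276, 344 and 325 CPM against 138, 126 and 119 CPM; -2.34, and -1.39 in the 5-library fit). From Csnk1g2 to Appl2 on chromosome 10 (80622838 to 83648738), 63 of 64 genes were lower with a median of -0.62, and 63 were lower at 48 h (median -0.58). Sirt6 lies in that stretch, at a far larger difference than the median, and so does the casein kinase gene Csnk1g2 (469, 209 and 207 CPM against 121, 121 and 123 CPM). The 716 genes of chromosome 5 before Usp12 had a median of -0.04. Calls of Hmgb1, Hsph1, Pomp and Csnk1g2 were lost without any 1 of the libraries labelled Chd5-/-, and that of Hmgb1 also without wild-type replicate 2 or 3 (adjusted p up to 0.115, 0.0848, 0.0798 and 0.129).

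The signs of the differences were compared between 3 h and 48 h. The libraries are separate, but the labels do not say whether cells of the same cultures were used at both times. Replicate 2 stood apart at 48 h in both genotypes: 22 mitosis genes summed to 3738 CPM in it against 229 and 235 CPM in the other wild-type libraries, and to 3276 CPM against 234 and 237 CPM in those labelled Chd5-/-. Of the 519 genes that rose at 3 h, 462 were also higher at 48 h (89%), and of the 558 that fell 472 were also lower (84.6%), where over all tested genes 58.4% had the same sign at both times. Without replicate 2 of both genotypes at 48 h these shares were 86.5% and 81.2%. At 48 h 440 of 16043 genes passed (2.74%), 246 higher (1.53%) and 194 lower (1.21%), and 144 of the 519 and 107 of the 558 did so in the same direction, which is 27.7% and 19.2% of the 3 h calls and 58.5% and 55.2% of the 48 h calls. In the opposite direction 1 and 4 passed. The median log2 fold change of the genes that rose was 2.42 at 3 h and 1.02 at 48 h, and of those that fell -2.58 and -0.90 (0.89 and -0.86 at 48 h without those replicates). These genes were selected for passing at 3 h, which by itself makes their values larger at 3 h than in other libraries, so the medians cannot be read as a change over time. In the fit on 10 libraries, without replicate 2 of both genotypes at 48 h, 843 of 16586 genes passed at 48 h (5.08%), 2439 at 3 h (14.7%) and 499 in the interaction (3.01%). Cdkn1a, Ctsz and Hdac11 are examples of similar size at both times, with 3.82 and 3.46, -6.74 and -6.94, and -8.54 and -7.90. On chromosomes 1 and 19 the median differences from wild-type replicates 1 and 3 at 48 h were 0.26 to 0.28 and 0.11 to 0.18, and chromosomes 6, 8 and 11, which were near 0 at 3 h, lay between 0.22 and 0.34.

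**Figure D4:**
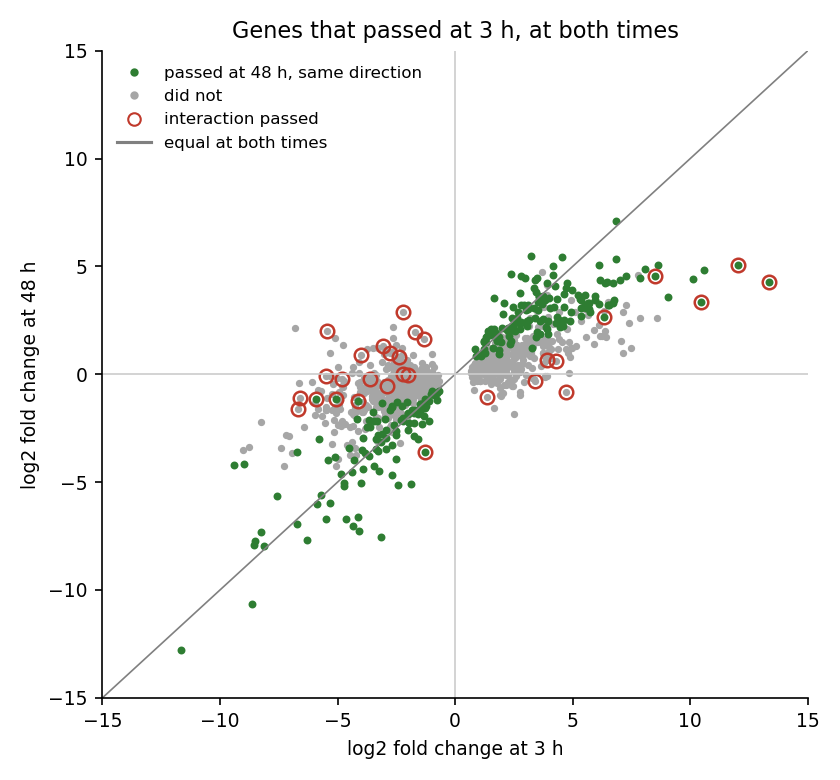
Log2 fold change (labelled Chd5-/- minus wild type) of the 1077 genes that passed at 3 h, at 3 h on the horizontal and at 48 h on the vertical axis; green points passed at 48 h in the same direction, red rings mark genes whose interaction of genotype and time passed, and the grey line marks equal change. Medians are 1.02 and -0.90 at 48 h against 2.42 and -2.58 at 3 h, and since the genes were selected at 3 h, values nearer to 0 at 48 h follow in part from the selection.

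The test of the difference between the times, the interaction of genotype and time, passed for 37 of 16043 genes (0.231%), 30 of them among the 3 h calls: 10 that rose at 3 h, 3 of these with the opposite sign at 48 h, and 20 that fell, 9 with the opposite sign. Collagen gene Col5a2 turned from -2.23 to 2.88 and Twist1 from -5.43 to 2.02 (adjusted p of the interaction 0.00572 and 0.00248). The mean level of Col5a2 at 48 h was 5.54 CPM for wild type and 40.8 CPM for those labelled Chd5-/- (n = 3 per group). That of Twist1 was low, at 0.45 and 1.85 CPM in the same order. An opposite sign at 48 h is not by itself a call at that time. The potassium channel gene Kcna2 turned from 1.35 (21.2, 28.8 and 30.6 CPM against 63.6, 68.6 and 73.4 CPM at 3 h) to -1.06. For Anxa2 the large loss at 3 h had no counterpart at 48 h (-0.07), where both groups stood near 31.7 and 30.1 CPM. Ddit4l, Nkx2-2, Shisa6 and Ank3 remained higher at 48 h by 4.27, 5.09, 3.36 and 4.56, less than at 3 h in each case. With a block for the replicate number 18 genes passed. The number of interaction calls was 310 without wild-type replicate 1 at 3 h, 19 and 20 without wild-type replicate 2 or 3, and 15, 17 and 15 without replicate 1, 2 or 3 labelled Chd5-/-.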

How the data were processed

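Poly(A) RNA was sequenced as stranded libraries. The authors deposited a Salmon table per library with estimated counts and TPM per transcript. Salmon is named in the submitters' processing notes, with no version, index or settings stated there or in the labels. Here the deposited estimated counts were summed by gene with GENCODE M21 (GRCm38) and rounded. Of 140658 transcripts 521 had no match (0.135 to 0.181% of reads). The deposited TPM values entered no test. The test was edgeR 4.0.16 (quasi-likelihood, R 4.3.3) on all 12 libraries, with filterByExpr (minimum count 10, minimum total 15), TMM scaling, a mean per group and Benjamini-Hochberg adjustment at 0.05. It was checked on simulated counts, where all changes of 1 on the log2 scale were missed and most changes of 2 were missed too. A list with no passing gene may therefore still hold changes of that size. Levels are CPM. A group with 0 reads was set to a floor of 3 counts in all for folds. The 95% intervals are exact Poisson, for counting error only. Alternatives were RLE scaling, other filters, DESeq2 1.42.0, limma-voom (limma 3.58.1), robust shrinkage, a length offset, fewer libraries, a replicate block and leaving out each library.

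The comparison and the gene lists were chosen with earlier results of these data known. Named genes are, of those that passed with at least 5 CPM in the higher group and no overlap, the 15 per direction with the largest fold and the 15 with the highest level, up to 6 passing and 3 other members per list, 5 per direction by interaction, and Chd5, Cdkn2a and Trp53; not all are described. Fas, Gdf15, Mdm2, Phlda3, Tnfrsf10b, Rps27l, Col4a1, Eml2, Bbc3, Bax and Bid were chosen after their values were seen, as were the values by chromosome, the stretches, the lists outside chromosomes 1, 15 and 19, and the 2 wild-type references for the chromosome medians. Some genes are not reported here.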

Additional observations from a re-analysis of the deposited data

Results flagged for a closer look

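For 17 named genes the genotype difference at 3 h differed from that at 48 h by the interaction test of edgeR (adjusted p given for each, n = 3 libraries per group and time). Log2 fold changes follow as 3 h and then 48 h. Genes higher at 3 h and less so at 48 h were Ddit4l (13.34 and 4.27, adjusted p = 0.00199), Nkx2-2 (12.04 and 5.09, 0.00476), Shisa6 (10.44 and 3.36, 0.0365), Ank3 (8.50 and 4.56, 0.0364) and Sulf1, a heparan sulfatase (4.29 and 0.60, 0.00611). Genes lower at 3 h and less so at 48 h were Sirt6 (-6.66 and -1.62, 0.00572), Sparcl1 (-6.59 and -1.08, 0.00476), Mxra8 (-5.91 and -1.15, 5.09e-04), Anxa2 (-5.48 and -0.07, 0.00248), Six3os1 (-5.06 and -1.13, 0.00199), Coro2b (-4.15 and -1.24, 0.00476) and Ndn (-2.89 and -0.53, 0.033). The sign differed between the times for Twist1 (-5.43 and 2.02, 0.00248), Eml2, a microtubule-binding protein gene (-4 and 0.91, 0.00476), Col5a2 (-2.23 and 2.88, 0.00572), Rin3, a Rab5 activator (4.70 and -0.82, 0.015), and Kcna2 (1.35 and -1.06, 0.00476). Mean levels at 48 h were low for Twist1 (0.45 CPM in wild type and 1.85 CPM in those labelled Chd5-/-) and for Rin3 (0.752 and 0.428 CPM).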

How the results depend on the processing

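The number of genes called at 3 h was 2091 with DESeq2 (898 higher, 1193 lower), 8250 with 5 libraries (4301 and 3949) and 8659 with 9 libraries, without wild-type replicate 1 at 3 h and both second replicates at 48 h (4491 and 4168), against 1077 (519 and 558). With 10 libraries, without both second replicates at 48 h (chosen after seeing the data), it was 2439 (1225 and 1214). With the length offset 343 were higher. Of the calls at 3 h, 251 passed at 48 h in the same direction, and 479 did with DESeq2, 143 with the length offset 3885 with 9 libraries and 461 with 10; interaction calls were 37, and 385 with DESeq2, 6669 with 9 libraries and 499 with 10. Leaving out 1 library gave 419 to 1636 calls, 248 to 929 higher, 171 to 707 lower, 138 to 587 passing at both times and 15 to 310 interaction calls. The cause of these changes was not tested. Deviations of same-numbered libraries at 3 h correlated at 0.15, 0.08 and 0.05, and wild-type replicate 3 correlated more with replicate 2 labelled Chd5-/- (0.07) than with replicate 3. Wild-type replicate 1 stands apart and so weighs on the deviations of all wild-type libraries at 3 h. These small values therefore cannot decide whether same-numbered samples are paired. At 48 h the correlations were 0.56, 0.74 and 0.56, but replicate 1 correlated with replicate 3 as closely (0.58 and 0.60), with replicate 2 apart in both genotypes. With a replicate block in all 12 libraries 18 interaction calls were made. With the block in the 6 libraries at 3 h 0 genes passed in edgeR (0 higher, 0 lower), with 2401 at an unadjusted p under 0.05. Of the 125 called genes described, 101 passed in the same direction with the length offset and 125 with DESeq2's size factors. The difference of Chd5 was -0.25 with the length offset. That of Rps27l, -0.17, was 0.09 with limma-voom, 0.70 with 5 libraries, 0.71 with 9 libraries, 0.09 with the replicate block in 6 libraries, and -0.46 to 0.71 with 1 library left out. Bax, 0.10, was at -0.22 to 1.15 with 1 library left out (-0.21 without wild-type replicate 3). Genes with few reads carry wide counting intervals, and the number of libraries limits every call.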
